A study of Zea mays with 21 samples.

Results

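The protein-coding transcriptome of maize root tips after 8 h of waterlogging (WS_8h) was compared with that of root tips collected before the treatment (WS_0h), to describe which genes still differed at 8 h and how far the 3 replicates agreed. Both groups came from seedlings of the inbred line B73 at the second leaf stage. In WS_8h a layer of water had stood above the substrate for 8 h, whereas the WS_0h plants had not been waterlogged. Each library was made from primary root tips mixed into 1 replication, with 3 libraries for each group, so this comparison used 6 of the 21 libraries of a time course with 7 time points. Of the 23175 genes listed, 22149 averaged more than 1 TPM in these 6 libraries and were tested. TPM is a transcript level per gene length, scaled to a common total in each library. Differences were taken on log2(TPM + 1), a scale that understates the change of genes with low values. A call of up- or down-regulation required a limma p-value, adjusted by the Benjamini-Hochberg method, under 0.05 and a log2 difference of more than 1 in size. The p-values weigh each difference against the spread between replicates, estimated from all 21 libraries in 1 fit and not from these 6 alone. In bulk root tips, fewer cells of a type and less RNA per cell cannot be told apart.

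Water that fills the soil pores slows the diffusion of oxygen into roots. When respiration becomes limited by oxygen, plant cells draw ATP mainly from glycolysis, and fermentation through pyruvate decarboxylase and alcohol dehydrogenase regenerates the NAD+ that glycolysis needs. Ethylene, a gaseous hormone that is trapped in flooded tissue, and transcription factors of the AP2-EREBP superfamily, which includes the group VII ethylene response factors that are stabilised when oxygen is low, take part in this response, as shown best in Arabidopsis and rice.

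At WS_8h, 966 genes were up-regulated and 877 were down-regulated, which is 4.36% and 3.96% of the genes tested and 8.32% together. The median log2 difference over all 22149 genes was -0.03. Up-regulated genes had a median log2 difference of 1.59, and 306 of them exceeded 2, 140 exceeded 3 and 42 exceeded 5. Down-regulation was smaller in size, with a median of -1.34, and 106 genes lay below -2, 8 below -3 and 0 below -5. On this scale a fall cannot be larger than the WS_0h value of the gene, whereas a rise has no such limit. The median WS_0h level of the down-regulated genes was 13.89 TPM. The up-regulated genes held 12.0%, 11.4% and 14.69% of the listed TPM in the 3 WS_8h libraries, against 2.80%, 2.94% and 2.67% in the 3 WS_0h libraries. The down-regulated genes held 1.72%, 1.48% and 1.67% in WS_8h, against 4.40%, 5.96% and 4.91% in WS_0h. These shares were computed over genes chosen by their calls and describe how much of the measured RNA the calls concern. Calls were more frequent among genes with high values, at 6.21% of genes with a mean of 1 to 5 TPM, 8.22% at 5 to 20 TPM, 11.39% at 20 to 100 TPM and 12.49% above 100 TPM. The 1 TPM added before the logarithm shrinks the differences of genes with low values, and its part in this trend was not tested. With 0.1 TPM added instead, 1180 genes were up- and 1063 down-regulated.

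**Figure D1:**
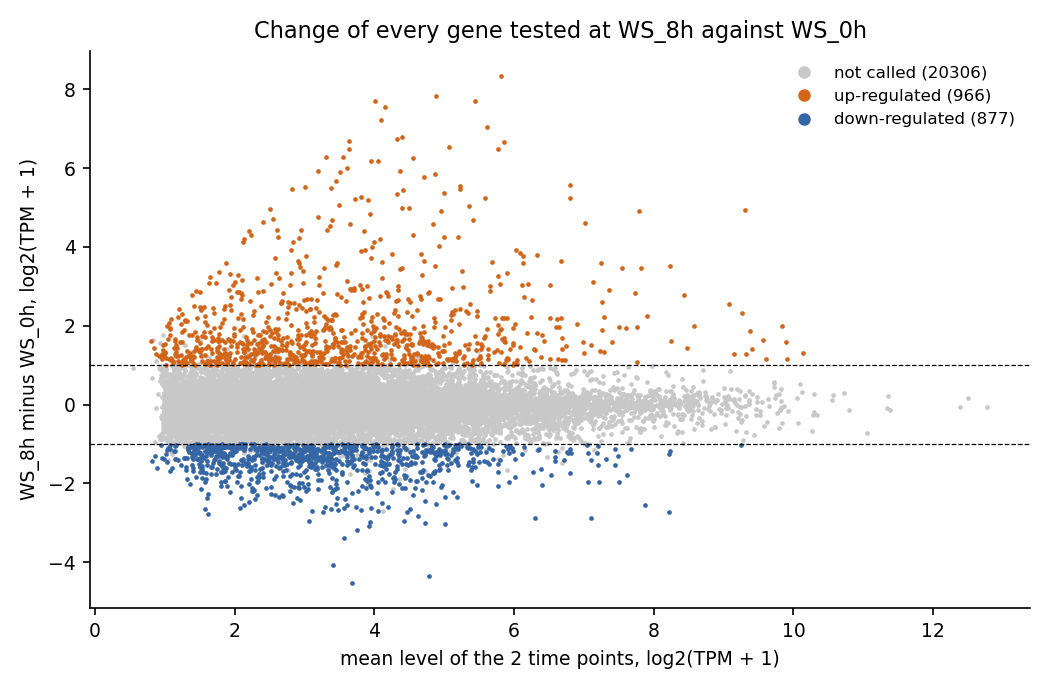
WS_8h minus WS_0h on the log2(TPM + 1) scale (vertical) against the mean level of both groups on the same scale (horizontal), with a point for each of the 22149 genes tested. The 966 up-regulated genes (orange) reach up to 8.34 and the 877 down-regulated genes (blue) down to -4.52, and the dashed lines mark differences of 1 and -1.

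The largest increase belonged to Zm00001d045391, which had 907, 749 and 1500 TPM in WS_8h, against 1.3, 2.86 and 2.39 TPM in WS_0h (log2 difference 8.34 ± 0.23 SE, limma adjusted p = 1.72e-14). The next, Zm00001d008288, had 443, 361 and 545 TPM in WS_8h, against 1.05, 0.83 and 0.97 TPM in WS_0h. In both genes the libraries of the groups lay far apart. The largest decrease was that of Zm00001d041656, which had 1.66, 1.96 and 1.47 TPM in WS_8h, against 58.0, 76.2 and 50.3 TPM in WS_0h (log2 difference -4.52 ± 0.43 SE, limma adjusted p = 3.58e-07). Zm00001d013261 followed, with 2.84, 4.36 and 9.80 TPM in WS_8h, against 127, 153 and 97.0 TPM in WS_0h. The sources used here give no product for these 4 IDs. They were taken as the extremes of the ranking, so their position there is not a finding.

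A total of 63 genes that the text of the study names were examined by group. Of these, 60 were listed and 59 passed the filter, of which 23 were up-regulated, 9 were down-regulated and 27 were not called. Their median log2 difference was 0.61, against -0.03 over all genes. The study picked these genes from the same libraries, so their share of calls is not independent evidence of a response and is not set against the 8.32% of all genes. Product and family names are those of the study. Zm00001d016924 (EIN3-like 5) did not pass the filter, at 0.81, 2.54 and 2.48 TPM in WS_8h, against 0.04, 0.08 and 0.02 TPM in WS_0h.

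Both pyruvate decarboxylases, which convert pyruvate into acetaldehyde at the entry to ethanol fermentation, remained far above WS_0h. The study named both as up-regulated in these same libraries, so they do not describe fermentation genes at large. Zm00001d010588 (pyruvate decarboxylase1) had 230, 273 and 227 TPM in WS_8h, against 0.33, 0.31 and 0.24 TPM in WS_0h (log2 difference 7.56 ± 0.34 SE, limma adjusted p = 9.87e-12). Zm00001d028759 (pyruvate decarboxylase isozyme 3) had 885, 1018 and 1151 TPM in WS_8h, against 85.9, 85.9 and 90.9 TPM in WS_0h (log2 difference 3.52 ± 0.15 SE, limma adjusted p = 5.8e-12). The first was close to silent before the treatment, whereas the second was already well expressed and had the higher level at WS_8h, per gene length, in all 3 libraries. The study used uniquely mapped reads, and how many reads of these genes were left out because near-identical copies exist was not tested.

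All 5 glycolytic genes of the list were up-regulated, with a median log2 difference of 1.95. The study named most of them as up-regulated in these same libraries, so this count does not describe the pathway. Zm00001d037689 (hexokinase7), whose product phosphorylates glucose in the first step, had 75.8, 113 and 82.9 TPM in WS_8h, against 11.6, 17.3 and 21.6 TPM in WS_0h (log2 difference 2.38 ± 0.31 SE, limma adjusted p = 1.55e-05). Zm00001d034256 (phosphohexose isomerase 1), which turns glucose-6-phosphate into fructose-6-phosphate, had 429, 314 and 416 TPM in WS_8h, against 83.7, 103 and 110 TPM in WS_0h. Its log2 difference was 1.95. The 3 WS_8h libraries of either gene lay above every WS_0h library. Zm00001d012103 (aldolase2), which splits fructose-1,6-bisphosphate, had 700, 1079 and 1293 TPM in WS_8h, against 503, 329 and 410 TPM in WS_0h, the smallest log2 difference of the group (1.28). Zm00001d017121 (glyceraldehyde-3-phosphate dehydrogenase 4), the NAD+-consuming step, had 1432, 1879 and 2260 TPM in WS_8h, against 567, 336 and 509 TPM in WS_0h, a log2 difference of 1.99. In both of these, WS_8h replicate 1 was the lowest WS_8h library and WS_0h replicate 1 the highest WS_0h library. Zm00001d052494 (pyruvate kinase), which makes pyruvate and ATP, had 203, 253 and 238 TPM in WS_8h, against 88.5, 66.5 and 86.8 TPM in WS_0h, a log2 difference of 1.51.

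**Figure D2:**
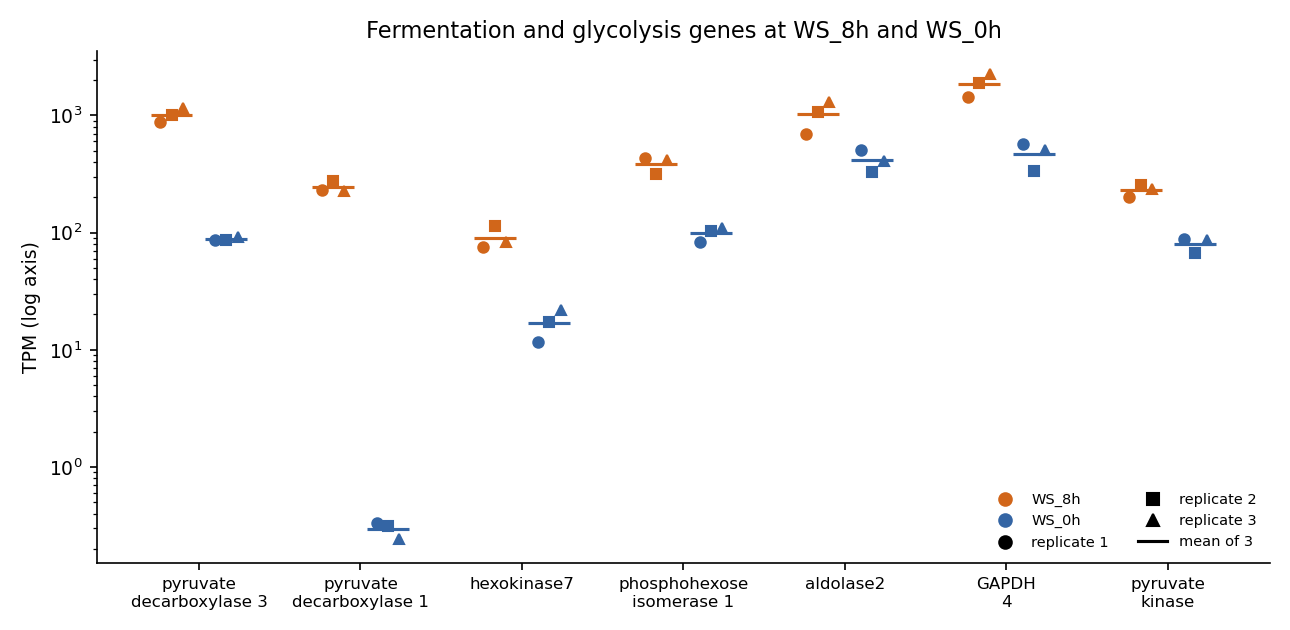
TPM on a log axis of the 2 fermentation and 5 glycolysis genes, with a point for each WS_8h library (orange) and each WS_0h library (blue), shapes for replicates and bars for the mean of 3. In all 7 genes the 3 WS_8h libraries lie above the 3 WS_0h libraries, by a log2 difference between 1.28 and 7.56.

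Among genes of ethylene signalling named by the study, 4 of the 5 tested were up-regulated and 0 were down-regulated (median log2 difference 1.83). The study named these genes as up-regulated in these same libraries, at 1 or more time points, so this count does not describe the pathway. Zm00001d027622 (C3HC4-type RING finger protein) had 12.4, 14.2 and 17.7 TPM in WS_8h, against 1.58, 1.63 and 1.57 TPM in WS_0h (log2 difference 2.59 ± 0.19 SE, limma adjusted p = 1.51e-08). Zm00001d032849 (RING/U-box protein) had 61.1, 53.6 and 63.9 TPM in WS_8h, against 2.74, 5.18 and 4.07 TPM in WS_0h. RING and U-box proteins commonly act as ubiquitin ligases, which mark other proteins for degradation. Zm00001d002896 (TUB transcription factor 4) had 39.1, 35.5 and 40.6 TPM in WS_8h, against 7.78, 12.5 and 10.6 TPM in WS_0h. Zm00001d027302 (SKP1-like protein 21), of a family that forms part of SCF ubiquitin ligases, had 11.8, 8.27 and 12.1 TPM in WS_8h, against 2.60, 3.38 and 2.86 TPM in WS_0h. The WS_8h libraries of these 4 genes lay near each other, and no value overlapped with WS_0h. Zm00001d020939 (an EIL factor, of the family of the ethylene regulator EIN3) had 29.0, 25.6 and 16.0 TPM in WS_8h, against 12.0, 20.6 and 19.4 TPM in WS_0h, where the groups overlapped (log2 difference 0.42 ± 0.28 SE, limma adjusted p = 0.37).

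In ethylene synthesis, 0 of 5 genes were called, and the libraries of WS_8h disagreed widely. ACC oxidase makes ethylene from ACC with the use of oxygen. The ACC oxidase gene Zm00001d024851 was listed at 0, 0.27 and 22.6 TPM in WS_8h, against 0.17, 0.53 and 1.41 TPM in WS_0h. Zm00001d024850 was listed at 0, 0.18 and 14.0 TPM in WS_8h, against 0.13, 0.36 and 0.96 TPM in WS_0h, and Zm00001d024852 at 0, 0.54 and 21.8 TPM in WS_8h, against 0.06, 0.06 and 0.21 TPM in WS_0h. All 3 genes were high in WS_8h replicate 3 alone, by 4.21, 3.67 and 3.89 on the log2 scale over the next WS_8h library. The sign of the difference of Zm00001d024850 and Zm00001d024851 turned when that library was left out, to -0.41 and -0.53. Leaving out WS_8h replicate 1 instead made Zm00001d024852 a call, with a log2 difference of 2.42. The 3 IDs are numbered side by side. The study used uniquely mapped reads, so reads that fit more than 1 of these genes would be left out, and how many was not tested. Another ACC oxidase gene, Zm00001d024843, had 4.18, 19.9 and 52.0 TPM in WS_8h, against 12.5, 17.4 and 24.6 TPM in WS_0h, and the WS_8h values spanned those of WS_0h on both sides. ACC synthase makes the ACC that these enzymes use, and Zm00001d026060 (ACC synthase) had 4.91, 11.6 and 14.5 TPM in WS_8h, against 5.66, 10.7 and 12.0 TPM in WS_0h. Its log2 difference of 0.06 ± 0.33 SE (limma adjusted p = 0.937) was below the spread between replicates.

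The 2 AP2-EREBP genes were both up-regulated. The study picked both from these same libraries, so this count does not describe the family. Zm00001d040651 had 71.1, 62.8 and 102 TPM in WS_8h, against 0.66, 0.39 and 0.54 TPM in WS_0h, the second largest log2 difference among the genes the study names (5.68 ± 0.23 SE, limma adjusted p = 1.85e-12). Zm00001d031728 had 2.71, 6.59 and 3.89 TPM in WS_8h, against 0.08, 0.11 and 0.31 TPM in WS_0h, a log2 difference of 2.15. Whether they belong to group VII is not given in the sources used here. Both were above 2 TPM in every library at 8 h and below 1 TPM in every library before waterlogging.

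NAC factors are plant-specific regulators of stress responses and development. The study named the NAC, bHLH and bZIP genes of this paragraph as up-regulated in these same libraries, so their counts do not describe the families. All 3 NAC genes tested were up-regulated. Zm00001d012527 had 10.6, 19.9 and 14.7 TPM in WS_8h, against 2.15, 5.23 and 4.27 TPM in WS_0h (log2 difference 1.73). Zm00001d013003 had 88.3, 137 and 166 TPM in WS_8h, against 27.8, 53.0 and 73.3 TPM in WS_0h (log2 difference 1.38). Zm00001d000112 had 35.4, 42.5 and 46.4 TPM in WS_8h, against 19.1, 26.1 and 15.4 TPM in WS_0h, and its log2 difference of 1.02 lay close to the threshold. The call of Zm00001d000112 was lost without WS_8h replicate 3 (0.94), WS_0h replicate 1 (1.0) or WS_0h replicate 3 (0.85). Of the bHLH factors, 4 of 5 were up-regulated, led by Zm00001d027987 with 39.2, 48.2 and 55.0 TPM in WS_8h, against 5.88, 5.98 and 5.22 TPM in WS_0h (log2 difference 2.84 ± 0.15 SE, limma adjusted p = 1.59e-10). The other 3, Zm00001d042263, Zm00001d043699 and Zm00001d013130, had log2 differences of 1.62, 1.58 and 1.28, and Zm00001d047017 had 0.23. Of the bZIP factors, Zm00001d005962 (1.32) and Zm00001d017911 (1.24) were up-regulated, whereas Zm00001d039065 (0.53) and Zm00001d041920 (PosF21, 0.49) were not called although their groups did not overlap.

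The study named both MYB genes as down-regulated in these same libraries, and both were called down at WS_8h. Zm00001d011669 had 3.10, 3.04 and 2.15 TPM in WS_8h, against 8.51, 14.5 and 10.3 TPM in WS_0h (log2 difference -1.66 ± 0.22 SE, limma adjusted p = 2.04e-05). Zm00001d035918 had 1.34, 1.24 and 1.11 TPM in WS_8h, against 3.89, 5.03 and 4.33 TPM in WS_0h, a log2 difference of -1.28. The WS_8h libraries were close to each other in both. Zm00001d018819 encodes a 9-cis-epoxycarotenoid dioxygenase (NCED5), the enzyme that commits carotenoids to abscisic acid. It had 0.09, 0.24 and 0.87 TPM in WS_8h, against 2.12, 6.65 and 8.37 TPM in WS_0h, a log2 difference of -2.16 ± 0.35 SE (limma adjusted p = 2.09e-04).

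Benzoxazinoids are defence compounds of grasses that are made from indole. The 3 tested genes of their synthesis were all down-regulated (median log2 difference -2.21), but WS_8h replicate 1 stood apart from the others in each. The study named these genes as down-regulated in these same libraries, so this count does not describe the pathway. Zm00001d048702 (indolin-2-one monooxygenase-like) had 46.7, 6.59 and 7.31 TPM in WS_8h, against 49.7, 45.9 and 74.9 TPM in WS_0h. Zm00001d048703 (cytochrome P450 71C1) had 29.9, 5.97 and 5.67 TPM in WS_8h, against 57.2, 52.5 and 75 TPM in WS_0h. Zm00001d048705 (cytochrome P450 71C3) had 49.5, 9.83 and 6.84 TPM in WS_8h, against 82.1, 49.0 and 101 TPM in WS_0h. In Zm00001d048702 and Zm00001d048705 the groups overlapped through this library alone. Its difference from the WS_0h mean was -0.24, -1.0 and -0.57 in the 3 genes in that order, against -2.76 to -3.26 in replicates 2 and 3. Limma adjusted p-values were 0.0177 for Zm00001d048702, 0.00137 for Zm00001d048703 and 0.0232 for Zm00001d048705. In a fit of the 6 libraries alone the calls of Zm00001d048702 (limma adjusted p = 0.0857, range over alternatives 0.000176 to 0.102) and Zm00001d048705 (limma adjusted p = 0.0577, range 0.00183 to 0.125) were lost. They were also lost without WS_8h replicate 2 (-1.50 and -1.92), WS_8h replicate 3 (-1.57 and -1.69) or WS_0h replicate 3 (-1.75 and -1.99), and the call of Zm00001d048705 also without WS_0h replicate 1 (-2.14). Among genes with a mean above 5 TPM at WS_8h, these 3 genes held 3 of the 4 largest gaps by which replicate 1 exceeded both other libraries (2.52, 2.22 and 2.15 on the log2 scale).

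**Figure D3:**
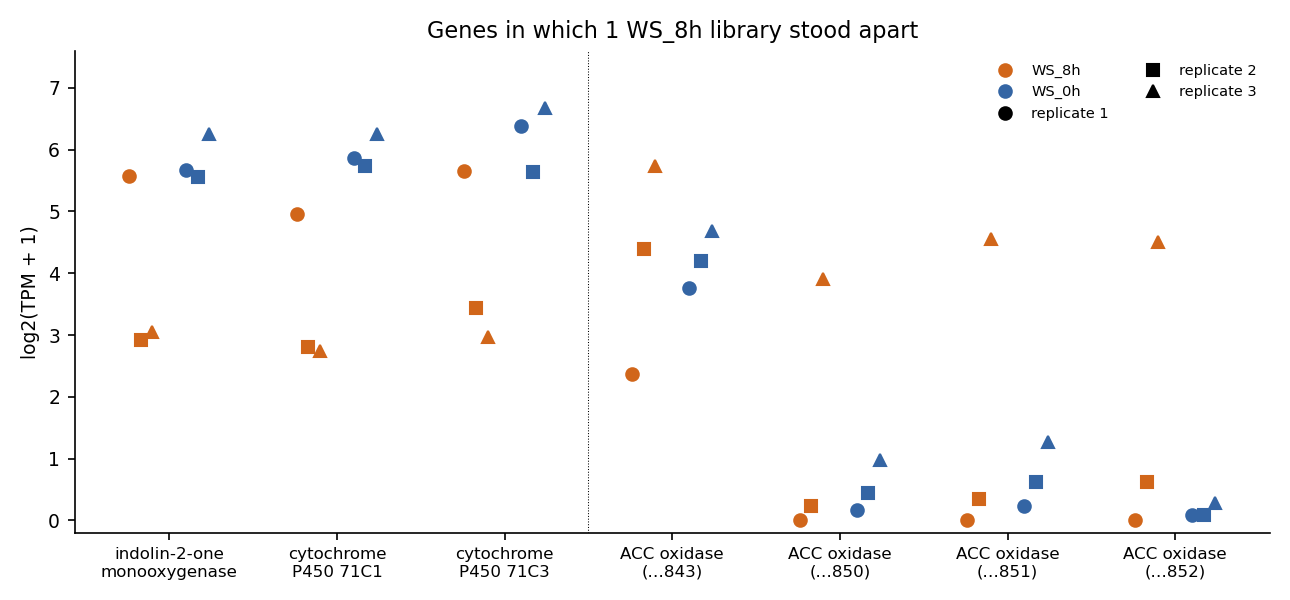
Log2(TPM + 1) of 3 benzoxazinoid genes (left of the dotted line) and 4 ACC oxidase genes (right, with the last digits of their IDs), with a point for each WS_8h library (orange) and each WS_0h library (blue) and shapes for replicates. WS_8h replicate 1 (circle) lies nearer to the WS_0h values than replicates 2 and 3 do in the benzoxazinoid genes, and WS_8h replicate 3 (triangle) lies 3.67 to 4.21 above the next WS_8h library in the last 3 ACC oxidase genes.

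Phenylalanine ammonia-lyase opens the phenylpropanoid pathway, whose later steps use peroxidases to build lignin. Of the 5 phenylalanine ammonia-lyase genes, 0 were called, with a median log2 difference of -0.34. Zm00001d017275 had 157, 157 and 153 TPM in WS_8h, against 220, 249 and 243 TPM in WS_0h. These groups did not overlap, but the log2 difference was -0.60 ± 0.21 SE (limma adjusted p = 0.0536). Zm00001d017279 had 49.0, 78.3 and 130 TPM in WS_8h, against 83.7, 106 and 95.3 TPM in WS_0h, with the WS_8h values on both sides of those of WS_0h. Of the 11 tested genes that the study calls peroxidases by ID, 0 were called, with a median log2 difference of 0.02. Zm00001d024752 had 101, 138 and 331 TPM in WS_8h, against 93.4, 123 and 112 TPM in WS_0h, and WS_8h replicates 2 and 3 lay above every WS_0h library. Zm00001d007161 had 36.6, 20.8 and 37.0 TPM in WS_8h, against 53.0, 57.4 and 62.5 TPM in WS_0h, a log2 difference of -0.90 ± 0.30 SE that was under the threshold of size and passed it without WS_8h replicate 1 (-1.02) or replicate 3 (-1.03). Zm00001d046035 was listed at 0, 0.76 and 16.5 TPM in WS_8h and at 0 in every WS_0h library. It was called only without WS_8h replicate 1.

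The remaining named genes were not grouped by role. The study places Zm00001d029280 in a co-expression module whose phenylpropanoid genes it describes as peroxidases, but gives no product for this ID by itself, so it was not counted among the peroxidases above. Zm00001d029280 had 44.1, 43.3 and 54.1 TPM in WS_8h, against 1.05, 1.05 and 0.28 TPM in WS_0h (log2 difference 4.77). Zm00001d015618 had 109, 104 and 92.0 TPM in WS_8h, against 194, 245 and 198 TPM in WS_0h. Its log2 difference of -1.05 was near the threshold, and the call was lost without WS_8h replicate 3 (-0.98) or WS_0h replicate 2 (-0.94). Zm00001d037719 (CAPIP1) had 34.9, 36.0 and 43.7 TPM in WS_8h, against 18.1, 26.0 and 19.2 TPM in WS_0h, and passed the limit on the adjusted p (limma, 5.33e-04) but not that on size (0.84). Zm00001d012263 (SAPK4) had 2.88, 2.89 and 2.80 TPM in WS_8h, against 2.63, 2.61 and 2.98 TPM in WS_0h, and did not differ beyond the spread between replicates (log2 difference 0.05 ± 0.14 SE).

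WS_8h was collected later in the day than WS_0h, since stress began at the same morning hour for all plants, and hours of waterlogging and time of day cannot be told apart. CCA1 and LHY, transcription factors of the circadian clock that peak around dawn in Arabidopsis, were both lower in WS_8h. Zm00001d049543 (CCA1) had 6.82, 4.12 and 5.13 TPM in WS_8h, against 16.5, 25.4 and 20.1 TPM in WS_0h (log2 difference -1.77 ± 0.25 SE, limma adjusted p = 4.46e-05). Zm00001d024546 (LHY) had 7.46, 3.44 and 4.48 TPM in WS_8h, against 11, 20.9 and 13.6 TPM in WS_0h, a log2 difference of -1.41. No value of either overlapped. The part of the time of day in the other calls was not tested.

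Next, WS_8h was set against the mean of the time points on both sides of it, WS_6h and WS_10h, a contrast that does not use WS_0h. It gave 208 genes higher and 848 genes lower at WS_8h, 0.939% and 3.83% of the genes tested. Of the 966 genes up-regulated against WS_0h, 228 were lower than these neighbours and 39 were higher. Of the 877 down-regulated genes, 40 were higher than the neighbours and 89 were lower. The median log2 difference of the genes up-regulated at WS_8h was 1.16 at 2 h, 2.31 at 4 h, 2.23 at 6 h, 1.59 at 8 h, 2.09 at 10 h and 2.04 at 12 h, and that of the down-regulated genes was -0.47, -2.18, -1.24, -1.34, -1.45 and -1.41 at the same times. These genes were selected at 8 h, and all of these differences share the 3 WS_0h libraries. The counts that follow cover only genes kept by their mean over WS_8h and WS_0h. Genes expressed mainly at other time points could thus be left out, as Zm00001d016924 was. By count, 892 genes were up- and 267 down-regulated at 2 h, 3920 and 5408 at 4 h, 1906 and 1612 at 6 h, 966 and 877 at 8 h, 1658 and 1378 at 10 h, and 1707 and 1345 at 12 h, so that 8 h had the fewest calls of the time points after 2 h.

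Among the named genes, 12 were lower at WS_8h than the neighbours and 1 was higher. Zm00001d010588 (pyruvate decarboxylase1) had 710, 690 and 797 TPM at WS_6h, 230, 273 and 227 TPM at WS_8h and 803, 685 and 712 TPM at WS_10h. Its WS_8h value was lower than the neighbours by -1.59 ± 0.29 SE on the log2 scale (limma adjusted p = 0.00128). The NAC gene Zm00001d012527 had 83.9, 90.0 and 99.4 TPM at WS_6h, 10.6, 19.9 and 14.7 TPM at WS_8h and 38.5, 56.4 and 49.0 TPM at WS_10h (-2.10 ± 0.34 SE, limma adjusted p = 4.37e-04). In both genes all 3 WS_8h libraries lay below all 6 neighbouring ones and above all 3 WS_0h ones. Zm00001d013003, another NAC gene, had 511, 539 and 515 TPM at WS_6h, 88.3, 137 and 166 TPM at WS_8h and 364, 411 and 356 TPM at WS_10h. Zm00001d027622 (RING finger protein) had 53.6, 59.4 and 62.7 TPM at WS_6h, 12.4, 14.2 and 17.7 TPM at WS_8h and 49.9, 38.8 and 41.6 TPM at WS_10h. The ACC synthase gene Zm00001d026060 had 28.3, 26.2 and 20.3 TPM at WS_6h, 4.91, 11.6 and 14.5 TPM at WS_8h and 18.1, 16.7 and 15.2 TPM at WS_10h. It was thus called below the mean of the neighbours at WS_8h while not distinguished from WS_0h. That call was lost without replicate 1 of WS_8h (-0.61), of WS_6h (-0.97) or of WS_10h (-0.99).

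The bZIP genes Zm00001d039065 and Zm00001d041920, also not called against WS_0h, were lower than the neighbours by -1.50 and -1.35 on the log2 scale (limma adjusted p = 1.59e-04 and 2.07e-04). Zm00001d037689 (hexokinase7) and the AP2-EREBP gene Zm00001d031728 were also lower than the neighbours, by -1.79 and -1.75. The rest of the named genes called against the neighbours are given further below. Some named genes were not called against the neighbours. Zm00001d029280 differed from WS_0h by 4.24, 4.77 and 5.04 on the log2 scale at 6, 8 and 10 h. The bHLH gene Zm00001d027987 differed from the neighbours by -0.14 (limma adjusted p = 0.549), and the AP2-EREBP gene Zm00001d040651 by -0.49 (limma adjusted p = 0.101). Pyruvate decarboxylase isozyme 3 (Zm00001d028759) was lower than the neighbours by -0.95 (limma adjusted p = 1.2e-04), just short of the limit on size, with every WS_8h library below every WS_6h and WS_10h library. WS_8h was the time point nearest to WS_0h among the 5 from WS_4h to WS_12h in 24 of the 32 named genes called at WS_8h and in 697 of all 1843 called genes.

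**Figure D4:**
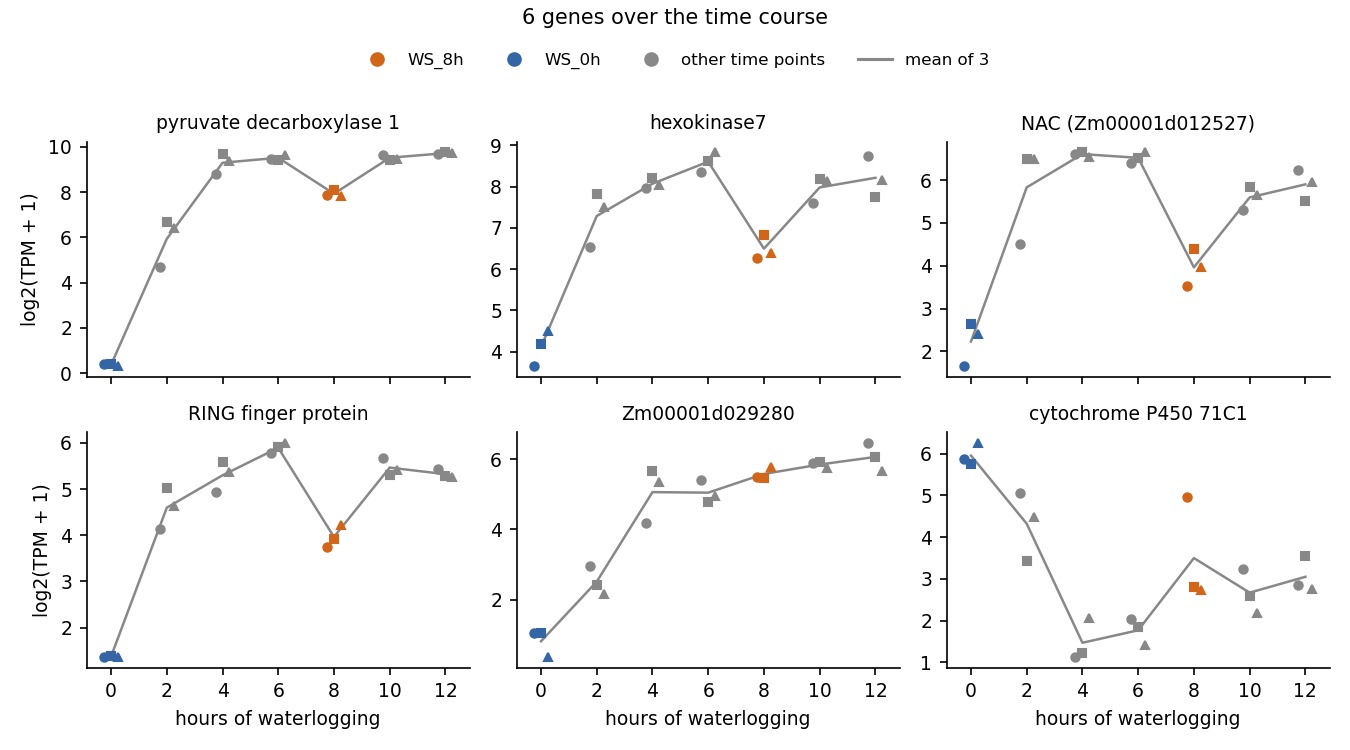
Log2(TPM + 1) of 6 named genes (vertical, each panel on its own range) against hours of waterlogging (horizontal), with a point for each of the 3 libraries, shapes for replicates and a line through the means. The WS_8h points (orange) of pyruvate decarboxylase1, at 227 to 273 TPM, lie below those of WS_6h and WS_10h, at 685 to 803 TPM, whereas those of Zm00001d029280 do not, and WS_8h replicate 1 (circle) lies above both others in cytochrome P450 71C1.

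Within WS_8h the replicates agreed less than within WS_0h. The Pearson correlation of log2(TPM + 1) across the 22149 genes was 0.968, 0.948 and 0.971 for the WS_8h pairs 1 and 2, 1 and 3, and 2 and 3, and 0.971, 0.976 and 0.983 for the same pairs of WS_0h. Between the groups it was 0.879 to 0.913. Genes are not independent replicates, and these values describe the libraries. The median SD between replicates was 0.212 in WS_8h and 0.166 in WS_0h, and the WS_8h SD was the larger in 63.5% of genes. An SD above 1 was found in 310 genes in WS_8h and 80 in WS_0h. The difference in SD held at every level, with medians of 0.206 in WS_8h and 0.156 in WS_0h at 1 to 5 TPM and of 0.288 in WS_8h and 0.213 in WS_0h above 100 TPM. On the first principal component of the 6 libraries (66.8% of the variance) WS_8h lay at 46.4, 48.6 and 57.1 and WS_0h at -45.1, -53.2 and -53.9. The second (14.7%) spread the WS_8h libraries over -42.4, -0.1 and 38.7, against -4.4, 10.0 and -1.8 in WS_0h, with WS_8h replicate 2 between replicates 1 and 3.

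Most calls held in all replicates. In 3703 genes every WS_8h library lay above every WS_0h library, and in 3694 every one lay below, which is 16.7% of the genes tested in either case. Of the 966 up-regulated genes, 960 did not overlap, and of the 877 down-regulated genes, 822 did not. The calls and the overlap use the same values, so these counts describe the calls only. A further 153 genes exceeded 1 on the log2 scale without passing the limit on the adjusted p, and in 103 of them the groups overlapped. Their median SD in WS_8h was 0.88, against 0.30 in called genes. In single libraries, 757, 846 and 945 of the up-regulated genes exceeded the WS_0h mean by more than 1 in WS_8h replicates 1, 2 and 3, and 662 (68.5%) did so in all 3. Of the down-regulated genes, 753, 783 and 649 lay more than 1 below the WS_0h mean, and 486 (55.4%) did so in all 3. Replicate 3 thus had the most up-regulated genes beyond this limit and the fewest down-regulated ones.

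Each WS_8h library was then compared with genes called without it. The WS_0h libraries enter both the calls and this difference, so only the WS_8h library is held out. Of 1117 genes up-regulated without replicate 1, 96.9% were above the WS_0h mean in replicate 1 and 65.3% exceeded it by more than 1. Of 982 up-regulated without replicate 2, 99.8% were above the mean in that library and 80% exceeded 1, and of 822 without replicate 3, 99.8% and 95.4%. For down-regulated genes, 98.7% of 812 genes were below the WS_0h mean in replicate 1 and 70.1% were more than 1 below it. In replicate 2 these shares were 99.6% and 80.7% of 791 genes, and in replicate 3 they were 96.7% and 55.6% of 1003 genes. A difference of more than 1 in the opposite direction occurred in 2 up-regulated genes in replicate 1 and in 4 down-regulated genes in replicate 3. The direction was therefore nearly always shared, whereas the size differed in part of the comparisons. The other WS_8h libraries selected these genes, so the medians are not on an equal footing. The median difference of the up-regulated genes was 1.26 in the held-out replicate 1, against 1.61 in the other libraries, and 1.97 in the held-out replicate 3, against 1.61 in the others. Down-regulated genes had a median of -1.07 in the held-out replicate 3, against -1.37 in the others. The medians lay closer in the held-out replicate 2, at 1.507 against 1.581 for up-regulated and -1.376 against -1.355 for down-regulated genes. They were also close for down-regulated genes in the held-out replicate 1, at -1.258 against -1.329.

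**Figure D5:**
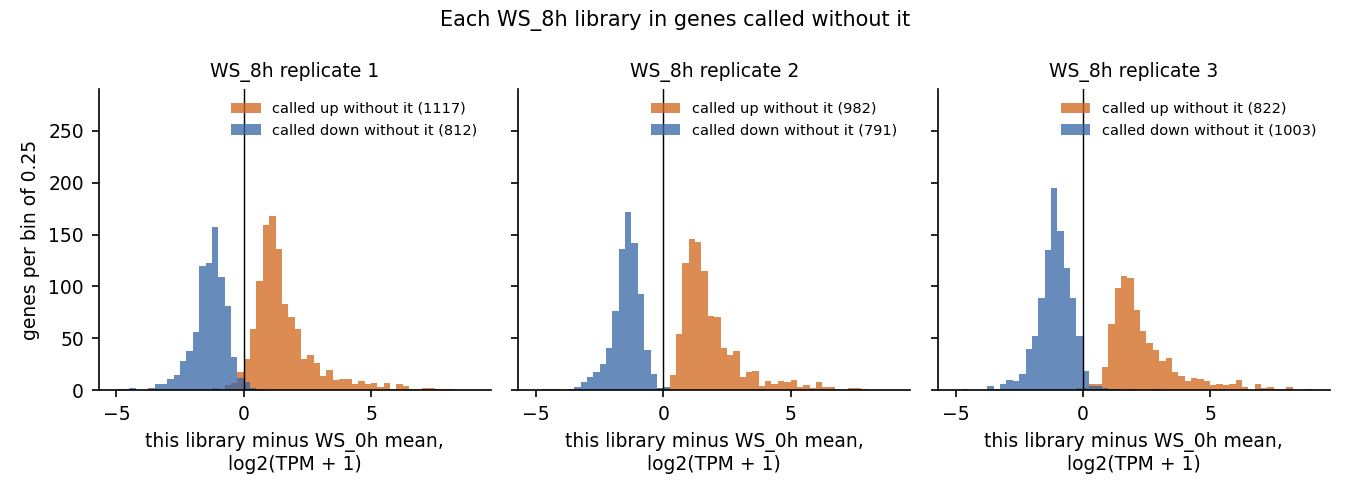
Histograms, 1 panel for each WS_8h replicate, of its difference from the WS_0h mean on the log2(TPM + 1) scale (horizontal) in genes called without it, as genes per bin of 0.25 (vertical), up-regulated in orange and down-regulated in blue. Up-regulated genes have the lowest median in replicate 1 (1.26) and the highest in replicate 3 (1.97), and nearly all values share the direction of the call.

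Genes in which 1 library stood more than 1 log2 unit beyond both others of its group were unevenly spread. In WS_8h replicate 1, 73 genes stood above and 367 below, in replicate 2, 30 and 24, and in replicate 3, 260 and 84. In WS_0h, replicate 1 had 23 above and 284 below, replicate 2 had 35 and 31, and replicate 3 had 16 and 31. Beyond 2 log2 units, replicate 1 of WS_8h had 6 above and 23 below, and replicate 3 had 34 above and 3 below. In 51 of the 73 genes high in replicate 1 (69.9%) its value was nearer to the WS_0h mean than the mean of the other 2 replicates was, as in the benzoxazinoid genes. This was not particular to that library. The value was likewise nearer to the WS_8h mean in 191 of the 284 genes low in WS_0h replicate 1 (67.3%), and nearer to the WS_0h mean in 119 of the 260 genes high in WS_8h replicate 3 (45.8%). The 367 genes low in WS_8h replicate 1 showed less of this, with 89 (24.3%) nearer to WS_0h. Their median difference from WS_0h was -1.43 in that library, against 0.17 in the others. The 260 genes high in replicate 3 had a median of 1.03 in that library, against -0.77 in the others, and the ACC oxidase genes Zm00001d024851 and Zm00001d024852 were among the 3 with the largest gaps above 5 TPM.

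These libraries also differed in other measures. Of the 23175 listed genes, 168, 54 and 52 were at 0 TPM in the 3 WS_8h libraries and 80, 65 and 82 in WS_0h, and the listed TPM summed to 534645, 608739 and 625827 in WS_8h and to 546472, 548884 and 575678 in WS_0h. A scale factor over the protein-coding genes, the median ratio to the geometric mean of the libraries, was 1.01, 1.0 and 1.05 in WS_8h and 1.02, 1.03 and 1.06 in WS_0h. The same factor over 2164 lncRNAs was 0.0906, 0.613 and 1.5 in WS_8h, against 1.57, 1.48 and 1.27 in WS_0h. WS_8h replicate 1 was thus the library with the most genes at 0 and the lowest lncRNA factor of the 6. The part of these measures in the disagreement between replicates was not tested. Read depth is not part of TPM, so no counting interval or detection limit is given, and the values at 0 are stated as listed.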

How the data were processed

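RNA of B73 primary root tips was sequenced at 7 time points with 3 libraries each. According to the study's methods, the authors trimmed the reads, aligned them to B73 RefGen_v4 (HISAT2 2.0.5 per the submitters' processing notes), counted them with featureCounts and deposited TPM per gene for genes above a mean TPM limit. Uniquely mapped reads were used. lncRNA TPM came from RSEM and were used only for library factors and for lncRNAs at 0. All columns were assigned by their labels.

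Genes with a mean above 1 TPM over the WS_8h and WS_0h libraries were fitted on log2(TPM + 1) with limma 3.58.1 in R 4.3.3, with 7 time point means over all 21 libraries, a mean-variance trend and Benjamini-Hochberg adjustment over 22149 genes. Agreement between replicates was described with pandas 2.3.3 and numpy 2.4.6 in Python 3.11.15, and drawn with matplotlib 3.10.9. On simulated data with 200 changed genes of 22149, the fit recovered 86.6%, 94% and 97% of changes of 1.5, 2 and 3 on the log2 scale, with 4 false calls. Changes were planted only in genes above 3 on the log2(TPM + 1) scale in WS_0h. The noise was normal, with the SD of each gene pooled over all time points. Changes in lower genes, a larger spread in WS_8h and libraries that stand apart were not simulated, so these rates do not cover them.

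Named genes are those in the study's text (the 2 clock genes were added to their list after the data were seen). Also picked out were the extremes of the ranking among called genes whose groups do not overlap and the 3 largest gaps of each WS_8h library. The called genes with the smallest WS_8h SD were picked out as well. The counts given for named genes cover only those in the study's text. Of IDs without a product, 2 that rose and 2 that fell are named. Members and lists were chosen with earlier results of these data known. Root and leaf marker lists, gene families searched by name, promoters and sequences were not analysed here. Alternatives were another pseudocount, filters, the 6 libraries alone, no trend, a replicate block, median-ratio rescaling and leaving out each library. Leaving out WS_6h and WS_10h libraries was chosen after seeing the data.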

Additional observations from a re-analysis of the deposited data

Results flagged for a closer look

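In 13 named genes the effect at WS_8h differed from the mean effect at WS_6h and WS_10h by a limma test of that difference, in which WS_0h cancels out. On the log2 scale, WS_8h differed from the neighbours by -2.10 in Zm00001d012527 (NAC), -1.80 in Zm00001d013003 (NAC), -1.79 in Zm00001d037689 (hexokinase7), -1.75 in Zm00001d031728 (AP2-EREBP), -1.72 in Zm00001d027622 (RING finger protein), -1.59 in Zm00001d010588 (pyruvate decarboxylase1), -1.50 in Zm00001d039065 (bZIP), -1.35 in Zm00001d041920 (bZIP) and -1.19 in Zm00001d002896 (TUB transcription factor 4). These 9 kept their calls under all alternatives run. The differences of -1.10 in Zm00001d047017 (bHLH), -1.02 in Zm00001d026060 (ACC synthase), -1.0 in Zm00001d000112 (NAC) and 1.28 in Zm00001d048703 (cytochrome P450 71C1) were each lost as calls under at least 1 alternative. The last rests on WS_8h replicate 1, without which it was 0.55.

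Among 6098 lncRNAs, a type of transcript outside the comparison, 469 were above 0 TPM in all 3 WS_8h libraries and listed at 0 in all 3 WS_0h libraries, and 1157 showed the reverse. The library factors of lncRNAs given above differ between these libraries, and their part in these counts was not tested.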

How the results depend on the processing

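The counts of 966 up-regulated and 877 down-regulated genes stayed within 1.5 times under every alternative run, at 736 to 1180 and 626 to 1063. The 1056 genes that differed from the neighbouring time points numbered 763 to 1382. Leaving out 1 library moved the share of up-regulated calls most, with 822 up and 1003 down without WS_8h replicate 3 and 1024 up and 657 down without WS_0h replicate 2. Replicate numbers were not used to pair the samples, and the study does not say whether they do. Same-numbered WS_8h and WS_0h libraries deviated with correlations of -0.019, -0.237 and -0.216, against -0.033 to 0.21 for libraries with different numbers. A fit with the replicate number as a block gave 973 up- and 924 down-regulated genes and changed the call of 0 named genes. Of 59 named genes, 44 kept call and direction under all alternatives. Those that changed sign had these lowest and highest log2 differences with 1 library left out: -0.67 and 0.12 in Zm00001d017276, -0.60 and 0.091 in Zm00001d017279, -0.83 and 0.84 in Zm00001d024843, -0.23 and 0.47 in Zm00001d026060, -0.17 and 0.33 in Zm00001d050572, -0.41 and 1.54 in Zm00001d024850, -0.53 and 1.75 in Zm00001d024851, and -0.16 and 0.50 in Zm00001d047017. None of these 8 was called. Of the 3 benzoxazinoid genes, 1 was called in the fit of the 6 libraries alone. The study reports read depth, which was not used here, and low TPM limit what could be called.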
